A study of Homo sapiens with 6 samples.

Results

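The insulin-like growth factor binding proteins (IGFBPs) were followed in A375, an established human melanoma cell line, by RNA sequencing of 3 control libraries and 3 libraries from cells exposed to 3 µM fluvastatin for 24 h. Fluvastatin is a statin, a drug that inhibits HMG-CoA reductase and so limits the supply of sterols and isoprenoids. The genes were chosen by name, as IGFBP2, IGFBP3, IGFBP4, IGFBP5, IGFBP6 and IGFBP7, and each had 1 row, so the group held 6 of 29790 genes. Both groups were grown side by side in serum-containing medium; the labels name neither a genetic change nor a vehicle for the controls. The labels call the libraries triplicates without stating whether each was its own culture, so the p-values speak for the variation among these libraries alone, which could be technical. Levels are given as FPKM, fragment numbers scaled by transcript length and by the depth of the library, so that genes of different length can be set side by side.

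IGFBPs are secreted proteins that bind insulin-like growth factors 1 and 2 (IGF1 and IGF2) outside the cell and set how much ligand reaches the IGF1 receptor. They can hold the ligand away from the receptor or deliver it to the cell surface, and proteases that cut them release it again. Several of them also act without the ligand, through integrins, other cell-surface proteins or the nucleus, and IGFBP3 and IGFBP7 have been studied as growth-restraining factors in melanoma and other tumours.

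The start regions of the genes that rose most are shown first, because IGFBP3, IGFBP4 and IGFBP6 rose together. RefSeq gave a promoter window (250 bases before to 50 after the start site, GRCh38.p14) for 5 of the 6 genes. The stretches below are sequence upstream of that start site, outside annotated exons of the gene, for IGFBP3 (chr7:45921275-45921424, minus strand) and IGFBP4 (chr17:40443300-40443449, plus strand). The IGFBP3 stretch lies inside the annotated span of its gene (45912245 to 45921874), whose outermost transcript start is further upstream. For IGFBP6 they are short stretches around a match at chr12:53097470-53097498 and at chr12:53097554-53097583 (plus strand), where 2 annotated transcripts start further upstream. Capitals mark TATAAA (a core promoter element that places the start of transcription), GGGCGG (GC box, bound by SP1), CACCC (the core bound by Krüppel-like factors), GGAATG (the TEAD motif) and GTAAACA (the FOXO motif), on either strand, except that each IGFBP6 line capitalises only the motif it is named for.
IGFBP3 upstream: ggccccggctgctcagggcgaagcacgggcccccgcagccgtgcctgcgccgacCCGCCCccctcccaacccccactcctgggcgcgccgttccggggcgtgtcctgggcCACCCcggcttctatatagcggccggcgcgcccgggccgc
IGFBP4 upstream: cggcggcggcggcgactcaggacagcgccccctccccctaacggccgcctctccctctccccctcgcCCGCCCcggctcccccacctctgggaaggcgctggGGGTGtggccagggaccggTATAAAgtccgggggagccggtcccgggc
IGFBP6 FOXO match: caatttgggaaGTAAACAgaaactggaaa
IGFBP6 TEAD match: cacccagtttagGGAATGcccctgccctct

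The 3 genes shared a GC box and a CACCC core within their windows, both of which are common. The GC box was found in 4 of the 5 windows and in 45.0% of all 35116 windows, and the CACCC core in 4 of 5 and in 59.9% of all. IGFBP4 had a TATAAA at position -29 from its start site, as did 11.5% of all windows at some position. Only the exact letters TATAAA were searched, so variants of this element were not counted in any window. IGFBP6 held GGAATG at position -101 and GTAAACA at -186, which 14% and 3.42% of all windows hold. IGFBP5 also held a GGAATG, on the opposite strand at position -230 to -235. IGFBP2, whose level changed least, had 3 windows, of which 1 was searched. That window held only a GC box. The AP-1 motif TGANTCA was in 0 of the 5 windows and in 7.71% of all. No match overlapped one of another motif. A match describes the letters of the window, not a bound site.

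IGFBP4 and IGFBP6 were the most abundant family members, and both rose with the drug. IGFBP4, which inhibits IGF action until it is cleaved by the protease PAPPA, had levels of 211.8, 206.4 and 180.5 FPKM in the control libraries (replicates 0, 1 and 2, the order used throughout) and 448.8, 519.5 and 464.0 FPKM after fluvastatin. Every fluvastatin library was thus above every control. The mean went from 199.6 ± 16.7 to 477.4 ± 37.2 FPKM (SD, n = 3 each), which is 2.39-fold, with a log2 fold change of 1.25 ± 0.11 (SE) on the log2(FPKM + 1) scale (limma, Benjamini-Hochberg adjusted p = 0.000773). IGFBP6, which prefers IGF2 over IGF1, was at 146.7, 146.8 and 126.9 FPKM in the controls and at 454.3, 537.3 and 469.2 FPKM after fluvastatin. Its groups did not overlap either. The group mean, 140.1 ± 11.4 FPKM in controls and 486.9 ± 44.2 FPKM after the drug, was 3.48-fold higher (log2 fold change 1.79 ± 0.11, limma adjusted p = 0.000317).

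IGFBP3, the main carrier of IGFs in blood and a protein that also acts on cells without IGF, rose from a lower level. Its values were 19.8, 22.3 and 22.6 FPKM in the controls and 58.8, 61.5 and 63.9 FPKM with fluvastatin. The libraries of a group lay close together and the groups far apart. The mean went from 21.6 ± 1.56 to 61.4 ± 2.54 FPKM, a 2.85-fold rise (log2 fold change 1.47 ± 0.09, limma adjusted p = 0.000330). IGFBP7, which binds IGFs weakly and is found in the extracellular matrix, was at 8.68, 7.36 and 6.88 FPKM in the controls and at 13.1, 16.5 and 11.4 FPKM after the drug. Here too the groups were apart, with a wider spread among the fluvastatin libraries. Its group mean of 7.64 ± 0.930 FPKM became 13.7 ± 2.61 FPKM, 1.79-fold higher (log2 fold change 0.76 ± 0.15, limma adjusted p = 0.0137).

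IGFBP2, which carries an integrin-binding RGD sequence, did not pass the test. It was at 31.1, 30.5 and 22.9 FPKM in the controls and at 33.4, 34.2 and 26.7 FPKM with fluvastatin, so the groups overlapped, and replicate 2 was the lowest library of each group. The log2 fold change was 0.16 with a 95% confidence interval of -0.22 to 0.53 (limma adjusted p = 0.497), which leaves room for a small rise or fall. IGFBP5, a heparin- and matrix-binding member, was near the lower limit of the data, at 0.452, 0.557 and 0.565 FPKM in the controls and 0.731, 1.13 and 0.611 FPKM with fluvastatin. The fluvastatin values were all higher, but only fluvastatin replicate 1 exceeded 1 FPKM, and the gene stayed below the filter of 1 FPKM in at least 3 libraries. An exact two-sided permutation test of its mean log2 value gave p = 0.10, the smallest that 3 against 3 libraries allow.

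**Figure D1:**
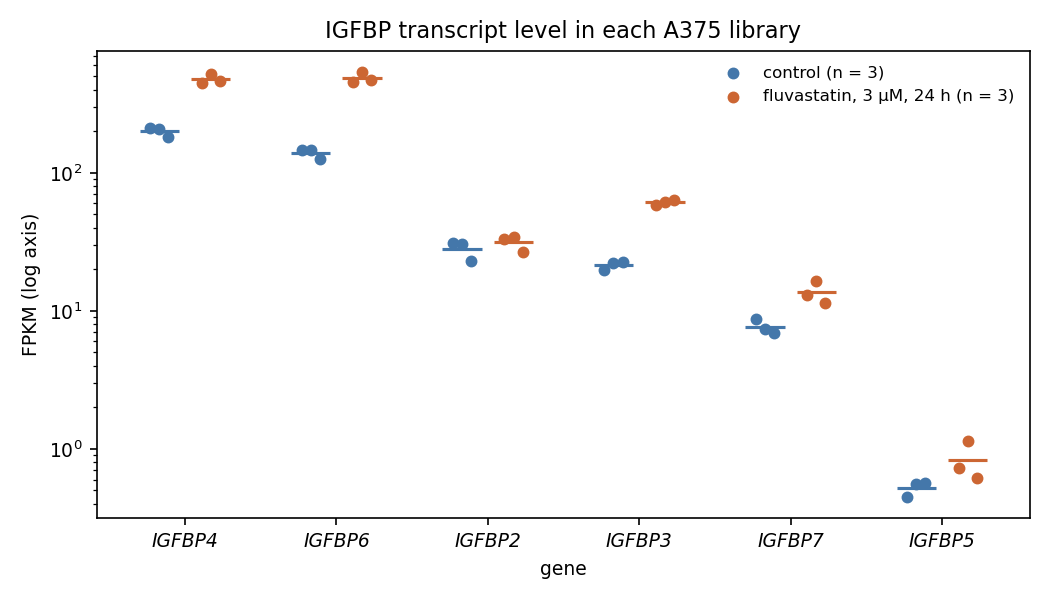
FPKM (log axis) of each IGFBP gene, in order of control level, with 1 point per library in order of replicate number and a line at the group mean (n = 3). The fluvastatin points lie above all control points for IGFBP4, IGFBP6, IGFBP3, IGFBP7 and IGFBP5, and the groups overlap for IGFBP2 (22.9 to 31.1 against 26.7 to 34.2 FPKM).

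Of the 6 genes 5 were tested, each with more than 1 FPKM in all 6 libraries, and 4 rose, 0 fell and 1 did not pass. Across all 14344 genes tested 27.7% were called, 14.1% higher and 13.6% lower. The same 4 tested genes had groups that did not overlap with fluvastatin higher, as had 21.9% of all tested genes. The median log2 fold change of the 5 tested IGFBPs was 1.25, against -0.01 for all tested genes. IGFBP6 had the rise of rank 76 among all tested genes, IGFBP3 that of rank 153, IGFBP4 of rank 251, IGFBP7 of rank 805 and IGFBP2 of rank 4686.

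**Figure D2:**
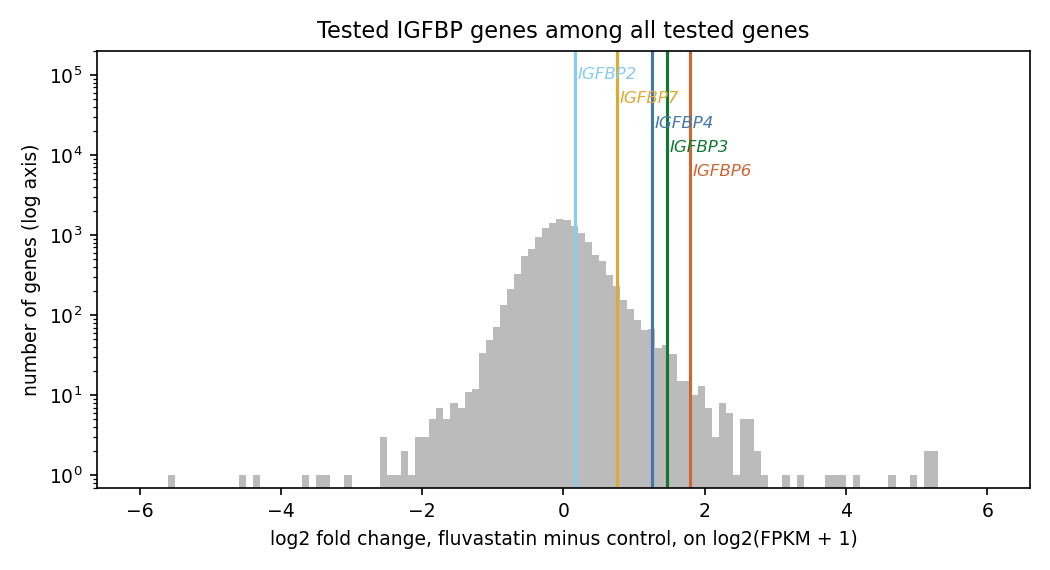
Distribution of the log2 fold change (fluvastatin minus control, on log2(FPKM + 1)) over the 14344 tested genes, with the number of genes on a log axis and a vertical line for each of the 5 tested IGFBP genes. IGFBP6, IGFBP3 and IGFBP4 lie in the upper tail at 1.79, 1.47 and 1.25, and IGFBP2 lies near the centre at 0.16.

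Every fluvastatin library was deeper than every control. Depth, estimated from the steps between low FPKM values, was 0.97 to 1.18 in the controls and 1.27 to 1.51 with fluvastatin, relative to control replicate 0, so depth and treatment cannot be told apart. With depth as a covariate in the limma fit, the log2 fold changes were 1.52 ± 0.21 for IGFBP6 (adjusted p = 0.0597), 1.37 ± 0.20 for IGFBP3 (0.0675), 1.02 ± 0.21 for IGFBP4 (0.105) and 0.60 ± 0.33 for IGFBP7 (0.379), and 0 of the 5 genes passed, with 3 at an unadjusted p below 0.05. In that fit 61 genes passed in all, and 2736 of the 14344 tested had an unadjusted p below 0.05.

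The rises changed the make-up of the family. The summed level of the 6 genes was 418.5, 414.0 and 360.4 FPKM in the control libraries and 1009.2, 1170.1 and 1035.7 FPKM in the fluvastatin libraries, a mean of 397.6 ± 32.4 against 1072 ± 86.2 FPKM, or 2.69-fold. IGFBP4 and IGFBP6 together made up 85.3% to 85.7% of that sum in the controls and 89.5% to 90.3% after the drug, so the sum follows mainly these genes. IGFBP4 gave 50.2% ± 0.39 of the sum in the controls and 44.6% ± 0.21 with fluvastatin, while IGFBP6 went from 35.2% ± 0.21 to 45.4% ± 0.46. The level of IGFBP6 divided by that of IGFBP4 was 0.692, 0.711 and 0.703 in the controls and 1.01, 1.03 and 1.01 with fluvastatin. This ratio is taken within a library, and its log2 value was higher by 0.54 in the fluvastatin group (exact two-sided permutation test, p = 0.10, the smallest possible with 3 against 3).

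The order of the levels in FPKM changed as well. In the controls it was IGFBP4, IGFBP6, IGFBP2, IGFBP3, IGFBP7 and IGFBP5, with IGFBP2 (22.9 to 31.1 FPKM) and IGFBP3 (19.8 to 22.6 FPKM) close to each other. With fluvastatin, IGFBP6 and IGFBP4 had group means of 486.9 ± 44.2 and 477.4 ± 37.2 FPKM, which overlap across libraries. Within each fluvastatin library IGFBP6 was slightly the higher, as the ratios of 1.01 to 1.03 above show. Which of them stands higher at ratios so near 1 depends on the transcript lengths used in scaling. Their longest annotated transcripts are 1177 bases for IGFBP6 and 2200 for IGFBP4. IGFBP3 stood above IGFBP2 in all 3 fluvastatin libraries. The share of IGFBP2 in the summed level was 7.05% ± 0.61 in the controls and 2.94% ± 0.37 with fluvastatin, whereas that of IGFBP3 overlapped between groups, at 5.46% ± 0.77 and 5.75% ± 0.46.

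**Figure D3:**
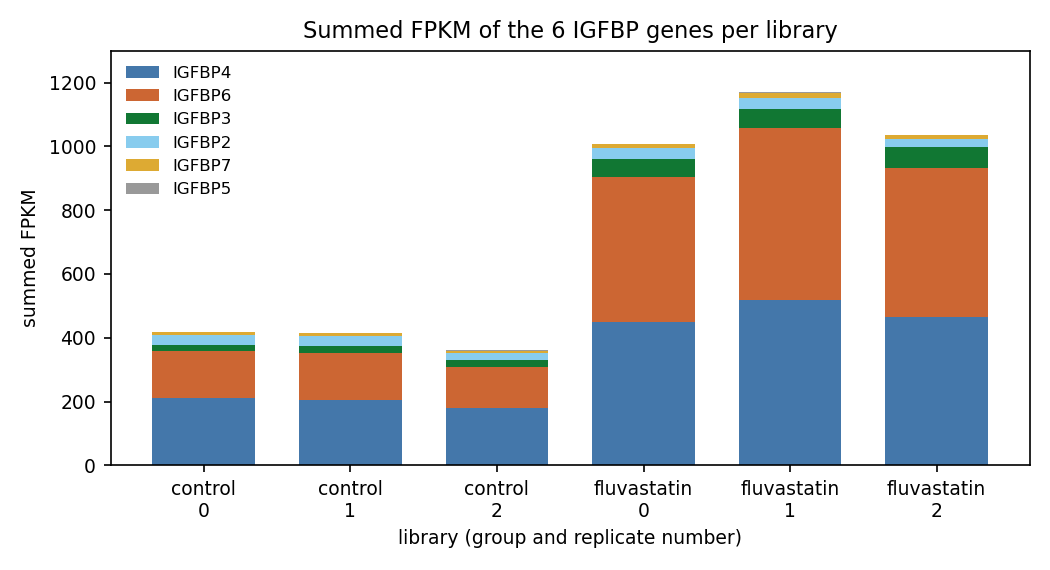
Stacked bars of the FPKM of the 6 IGFBP genes in each library, by group and replicate number. The bars reach 360.4 to 418.5 FPKM in the controls and 1009.2 to 1170.1 FPKM with fluvastatin, and IGFBP4 and IGFBP6 fill most of each bar.

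The amount of sequence behind these values differed between the genes. Taking the longest annotated transcript of each gene and the estimated depth of each library, IGFBP4 rested on about 5400 to 7600 fragments in a control library and IGFBP6 on about 2000 to 2900. IGFBP7 rested on about 130 to 180 and IGFBP5 on about 40 to 58 fragments, so counting error weighs most on these. IGFBP7 (ENSG00000163453.11, chromosome 4, 57030773 to 57110385, minus strand of GRCh38) overlaps the end of POLR2B, an RNA polymerase II subunit gene on the other strand, by 396 bases. The strand setting of the counting is not given in the sources used here, so reads there cannot be told apart, and POLR2B was at 106.1 ± 10.8 FPKM in the controls and 93.6 ± 1.89 FPKM with fluvastatin (limma adjusted p = 0.240).

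The other genes have these positions on GRCh38. IGFBP3 (ENSG00000146674.14) lies on chromosome 7 at 45912245 to 45921874, minus strand, and its nearest coding neighbour is IGFBP1, 18.6 kb away. IGFBP2 (ENSG00000115457.9, 216632828 to 216664436, plus strand) and IGFBP5 (ENSG00000115461.4, 216672105 to 216695525, minus strand) lie tail to tail on chromosome 2, 7.7 kb apart. IGFBP4 (ENSG00000141753.6) is on chromosome 17 at 40443461 to 40457731, plus strand, and IGFBP6 (ENSG00000167779.7) on chromosome 12 at 53097436 to 53102345, plus strand. In each of these neighbouring pairs 1 gene was too low to test, IGFBP1 beside IGFBP3 and IGFBP5 beside IGFBP2.

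IGF2, the 1 IGF ligand measured, was listed at 0 in 5 libraries and at 0.00959 FPKM in control replicate 1. IGF1 and INS, the insulin gene, were looked up but had no row here, so their levels are not known. IGFALS, which joins IGFBP3 and an IGF in the large serum complex, reached at most 0.123 FPKM. The receptors were expressed, and limma called 0 of the 3 tested after adjustment, with 2 at an unadjusted p below 0.05. Their median log2 fold change was 0.04. Of all 14344 genes tested, 5775 had an unadjusted p below 0.05 and 27.7% were called. IGF1R, the signalling receptor, was at 45.2, 30.0 and 32.7 FPKM in the controls and at 36.9, 34.0 and 38.9 FPKM with fluvastatin, which overlap (adjusted p = 0.867). IGF2R, which clears IGF2, was at 31.5 ± 3.05 and 41.8 ± 8.06 FPKM (limma adjusted p = 0.119). INSR, the insulin receptor, was at 3.98 ± 0.359 and 2.92 ± 0.450 FPKM (limma adjusted p = 0.0619). Without fluvastatin replicate 1 both IGF2R (log2 fold change 0.53, adjusted p = 0.0486) and INSR (-0.44, adjusted p = 0.0432) passed. INSRR, the insulin receptor-related receptor, was listed at 0 in 5 libraries and at 0.0123 FPKM in control replicate 0.

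IGFBP1, the family member of liver and decidua that is not in the group, was listed at 0, 0.324 and 0.266 FPKM in the controls and at 0.662, 0.457 and 0.658 FPKM with fluvastatin. These values stand for about 0 to 9 and 16 to 20 fragments, and the exact permutation test gave p = 0.10, the smallest possible with 3 against 3 libraries.

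Of 13 genes for IGFBP partners, proteases and protease inhibitors, limma tested 9: 3 rose, 1 fell and 5 were not called. Their median log2 fold change was 0.08, and 27.7% of all tested genes were called. STC1, stanniocalcin-1, which inhibits the IGFBP4 protease PAPPA, was at 13.4, 13.5 and 15.2 FPKM in the controls and at 53.1, 47.9 and 59.1 FPKM with fluvastatin, a 3.81-fold rise (log2 fold change 1.85 ± 0.11, limma adjusted p = 0.000287). PAPPA itself was at 1.66 ± 0.764 and 1.09 ± 0.134 FPKM (limma adjusted p = 0.272). STC2, from the same list, was at 13.15 ± 4.37 and 13.53 ± 0.607 FPKM (limma adjusted p = 0.806). MMP1, an interstitial collagenase that can also cut IGFBPs, rose from 0.517 ± 0.161 to 6.60 ± 0.809 FPKM (limma adjusted p = 0.000198). All its control values were below 1 FPKM, so MMP1 met the filter only through the fluvastatin libraries. Its place among the 3 that rose is therefore no independent support for a rise of the list. With depth as a covariate the log2 fold changes of STC1 and MMP1 were 2.02 ± 0.23 and 2.30 ± 0.28, still called (adjusted p = 0.0472 and 0.0496), while PLAU at -2.05 ± 0.43 (0.109) and CTSD at 0.33 ± 0.23 (0.495) were not. PLAU, the urokinase that activates plasmin, fell 3.73-fold from 5.32 ± 2.36 to 1.43 ± 0.304 FPKM (limma adjusted p = 0.0111). CTSD, the lysosomal protease cathepsin D, rose 1.32-fold (adjusted p = 0.0326), a call lost with any of 5 libraries left out: control replicate 1 (0.0882) or 2 (0.0744), or fluvastatin replicate 0 (0.0893), 1 (0.0959) or 2 (0.0605).

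Among 6 cell-surface partners of IGFBPs, limma tested 4: 3 rose and 1 was not called. Their median log2 fold change was 0.52, and 27.7% of all tested genes were called. LRP1, an endocytic receptor that binds IGFBP3, was at 19.8, 20.3 and 20.3 FPKM in the controls and 42.2, 36.2 and 34.7 FPKM with fluvastatin, 1.87-fold higher (limma adjusted p = 0.00204). TMEM219, which encodes another IGFBP3 receptor, rose 1.40-fold from 34.9 ± 1.16 to 48.9 ± 4.41 FPKM (limma adjusted p = 0.0139). ITGA5, the integrin alpha 5 chain, rose 1.49-fold (limma adjusted p = 0.00754), and its partner ITGB1 was at 168.5 ± 13.6 and 194.9 ± 5.84 FPKM (limma adjusted p = 0.142). With depth as a covariate the log2 fold change of LRP1 went from 0.868 ± 0.10 to 1.003 ± 0.21 (adjusted p = 0.111), that of ITGA5 from 0.56 ± 0.09 to 0.65 ± 0.21 (0.186) and that of TMEM219 from 0.47 ± 0.10 to 0.24 ± 0.19 (0.525).

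Other genes whose proteins carry an IGFBP-type domain went both ways. Of 14 listed, limma tested 8: 2 rose, 3 fell and 3 were not called, beside 27.7% of all tested genes called. Their median log2 fold change was 0.17. The matricellular genes CYR61 and CTGF fell 3.91-fold and 3.26-fold, from 125.0 ± 4.43 to 32.0 ± 2.21 FPKM and from 65.8 ± 4.35 to 20.2 ± 0.526 FPKM (limma adjusted p = 0.000128 and 0.000197). CRIM1, a membrane protein that binds bone morphogenetic proteins, fell 2.32-fold, from 216.9 ± 14.5 to 93.4 ± 1.28 FPKM (limma adjusted p = 0.000446). NOV, a matricellular relative of CYR61 and CTGF, rose 2.13-fold from 2.62 ± 0.164 to 5.58 ± 0.404 FPKM (limma adjusted p = 0.00153). The other gene that rose was KAZALD1, a secreted protein gene named after its values were seen, with 7.78 ± 0.767 and 12.3 ± 0.284 FPKM (limma adjusted p = 0.00596). With depth as a covariate the log2 fold change of CRIM1 went from -1.20 ± 0.09 to -1.30 ± 0.19 (adjusted p = 0.0675) and that of NOV from 0.86 ± 0.09 to 0.79 ± 0.20 (0.138), while CYR61 at -1.99 ± 0.20 and CTGF at -1.65 ± 0.20 were still called (0.0381 and 0.0496).

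Of 18 adapters and kinases that act below the insulin and IGF1 receptors, limma tested 16: 4 rose, 0 fell and 12 were not called. Across all 14344 genes tested 27.7% were called. The median log2 fold change of the 16 was 0.13. An unadjusted p below 0.05 was given by limma for 7 of the 16 and for 5775 of the 14344. GRB10, an adapter that restrains both receptors, rose 2.03-fold from 2.23 ± 0.507 to 4.52 ± 0.934 FPKM (limma adjusted p = 0.0177), a call lost without fluvastatin replicate 0 (0.0525) or 2 (0.0516). SOS2, a RAS exchange factor, rose 1.66-fold (limma adjusted p = 0.00747). IRS1, the docking protein of the receptors, rose 1.36-fold (limma adjusted p = 0.0315). Leaving out any of 5 libraries ended the IRS1 call: control replicate 1 (0.0846), control replicate 2 (0.0718), fluvastatin replicate 0 (0.0641), fluvastatin replicate 1 (0.0735) and fluvastatin replicate 2 (0.0960). It was also lost with no filter on low values (0.0520). With depth as a covariate the log2 fold change of GRB10 went from 0.77 ± 0.17 to 1.41 ± 0.21 (adjusted p = 0.0687), that of SOS2 from 0.66 ± 0.11 to 0.81 ± 0.24 (0.163) and that of IRS1 from 0.42 ± 0.11 to 0.35 ± 0.24 (0.480).

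The 3 IGF2 mRNA-binding proteins share only part of the name, since they bind RNA and not IGFs. IGF2BP1 fell 1.38-fold from 56.1 ± 4.78 to 40.8 ± 5.74 FPKM (limma adjusted p = 0.0390), and leaving out any of 4 libraries ended that call: control replicate 0 (0.102), control replicate 1 (0.108), fluvastatin replicate 1 (0.109) and fluvastatin replicate 2 (0.114). With depth as a covariate its log2 fold change went from -0.46 ± 0.13 to -0.37 ± 0.28 (adjusted p = 0.521). IGF2BP2 was at 50.2 ± 2.09 and 56.7 ± 1.89 FPKM (limma adjusted p = 0.166) and IGF2BP3 at 57.4 ± 8.62 and 54.5 ± 1.40 FPKM (limma adjusted p = 0.732).

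**Figure D4:**
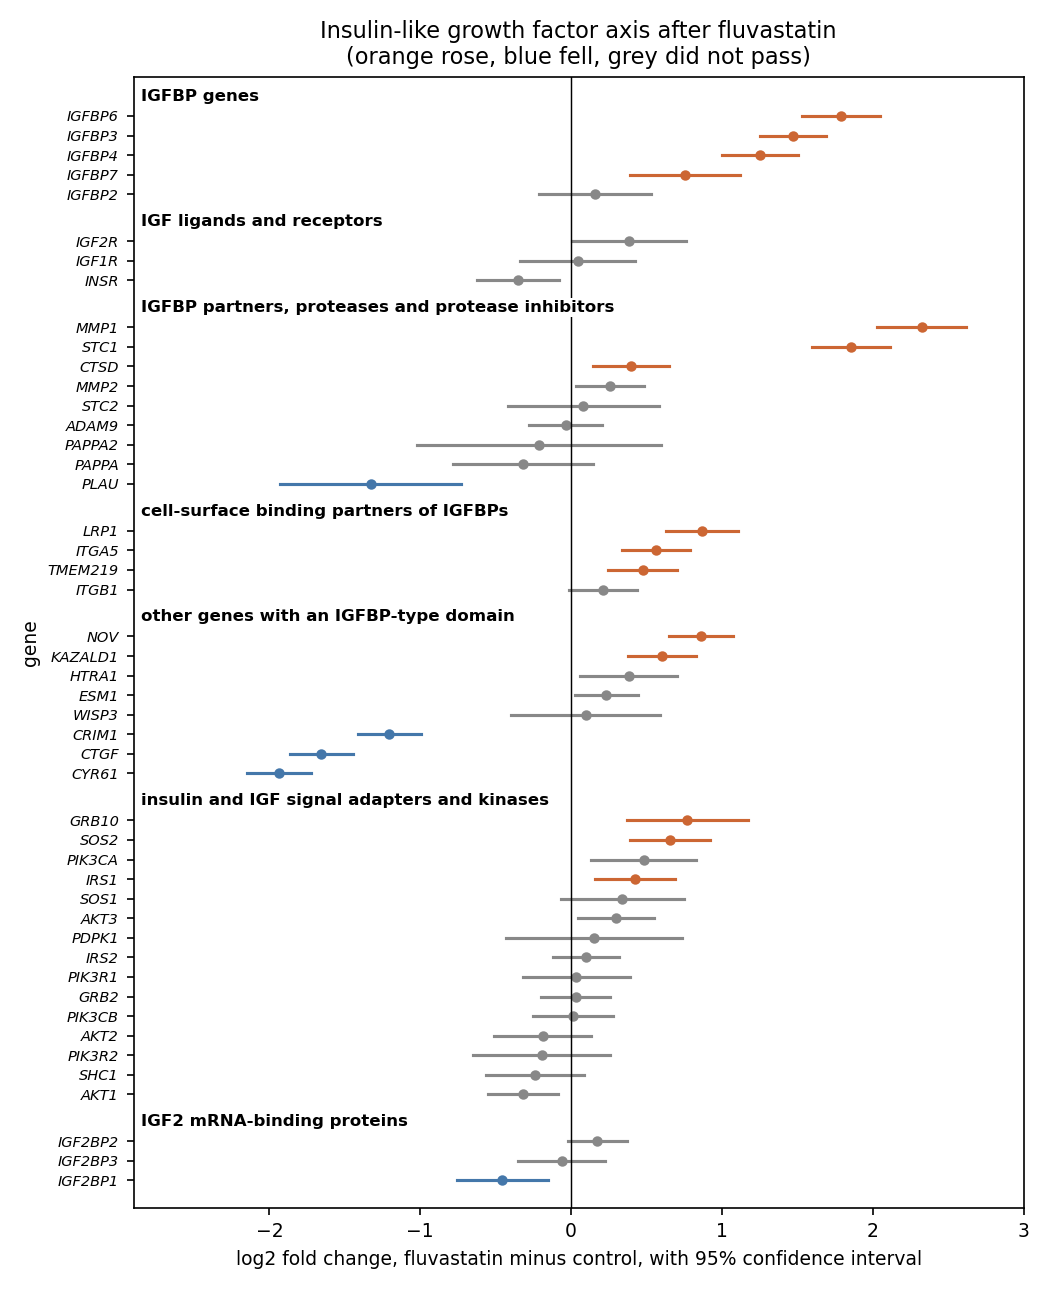
Log2 fold change (fluvastatin minus control, on log2(FPKM + 1)) with its 95% confidence interval for the tested genes of the 6 lists, except 1 adapter or kinase gene that is not shown, and for the 5 tested IGFBPs, coloured by the call. The intervals of IGFBP6, IGFBP3, IGFBP4 and IGFBP7 lie above 0, those of IGF1R and IGFBP2 span 0, and the other genes with an IGFBP-type domain lie on both sides.

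The genes whose values ran closest to each IGFBP over the 6 libraries were looked up for the 5 tested members. Likeness was the root mean square difference between log2(FPKM + 1) values centred on each gene's mean, among 10175 other tested genes averaging 5 FPKM or more. It includes the step between the groups, so genes with a like log2 fold change score as close. KLF9, for example, had 1.44 beside 1.47 for IGFBP3, and JUND 1.80 beside 1.79 for IGFBP6. A link of these genes to the IGFBPs was not tested. IGFBP3 was closest to KLF9, a Krüppel-like factor (0.04), CTD-2354A18.1, an RNA gene (0.05), and EMP3, a membrane protein gene (0.05). IGFBP4 was closest to LMNA, the lamin A gene (0.06), SLC9A3R2, a scaffold protein gene (0.06), and CSPG4, the melanoma-associated proteoglycan (0.06). IGFBP6 came nearest to JUND, an AP-1 subunit (0.06), C19orf33 (0.07) and SFN, the 14-3-3 sigma gene (0.08). IGFBP7 came nearest to STX4, a syntaxin (0.06), LINC00623 (0.08) and TIMP1, a metalloproteinase inhibitor (0.08), and IGFBP2 to PCSK7, a proprotein convertase (0.05), AHDC1 (0.06) and ICAM1, an adhesion receptor (0.06).

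The melanoma label was met in part by its markers. SOX10, a neural crest factor, was at 20.1 to 26.1 FPKM in the controls and 67.1 to 75.4 FPKM with fluvastatin, and MITF, the melanocyte lineage factor, at 6.10 to 7.77 FPKM over all libraries. Of 8 melanocyte lineage markers listed, 6 were measured, and MLANA and TYR had no row here. The pigment cell genes PMEL, TYRP1, DCT and S100B stayed below 1 FPKM throughout. Of 6 fibroblast markers, a cell type rich in several IGFBPs, 2 passed the filter and their summed level was 18.3 to 21.7 FPKM in the controls and 10.3 to 12.5 FPKM with fluvastatin, with COL3A1 listed at 0 in 5 libraries and COL1A1 falling 1.87-fold (limma adjusted p = 0.0177). Of 4 endothelial markers 1 passed, KDR, and their sum was 0.345 to 0.382 and 1.30 to 1.61 FPKM, with CDH5 listed at 0 in 5 libraries and KDR rising from 0.293 ± 0.0297 to 1.34 ± 0.165 FPKM (limma adjusted p = 0.0015). Of the 3 keratinocyte markers measured, 2 passed, with a sum, mostly KRT10, of 38.4 to 63.9 and 70.0 to 71.3 FPKM. KRT10 did not pass the test (limma adjusted p = 0.215), and KRT14 rose 7.22-fold, from 0.691 ± 0.0935 to 4.99 ± 0.923 FPKM (0.000446). KDR and KRT14 were below 1 FPKM in every control and met the filter only through the fluvastatin libraries. The 1 immune marker measured, CD14, did not pass the filter. The 4 markers of dedifferentiated melanoma all passed the filter, and their sum, mostly AXL, was 400.4 to 426.3 FPKM in the controls and 387.9 to 408.1 FPKM with fluvastatin. AXL did not pass the test (limma adjusted p = 0.524), SOX9 fell 1.74-fold (0.00142), and NGFR and EGFR rose 1.54-fold and 1.38-fold (0.0121 and 0.0180). The part of these marker changes in the IGFBP results was not tested. All libraries are of the A375 line, and bulk RNA cannot tell fewer A375 cells expressing a gene from less RNA per cell.

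**Figure D5:**
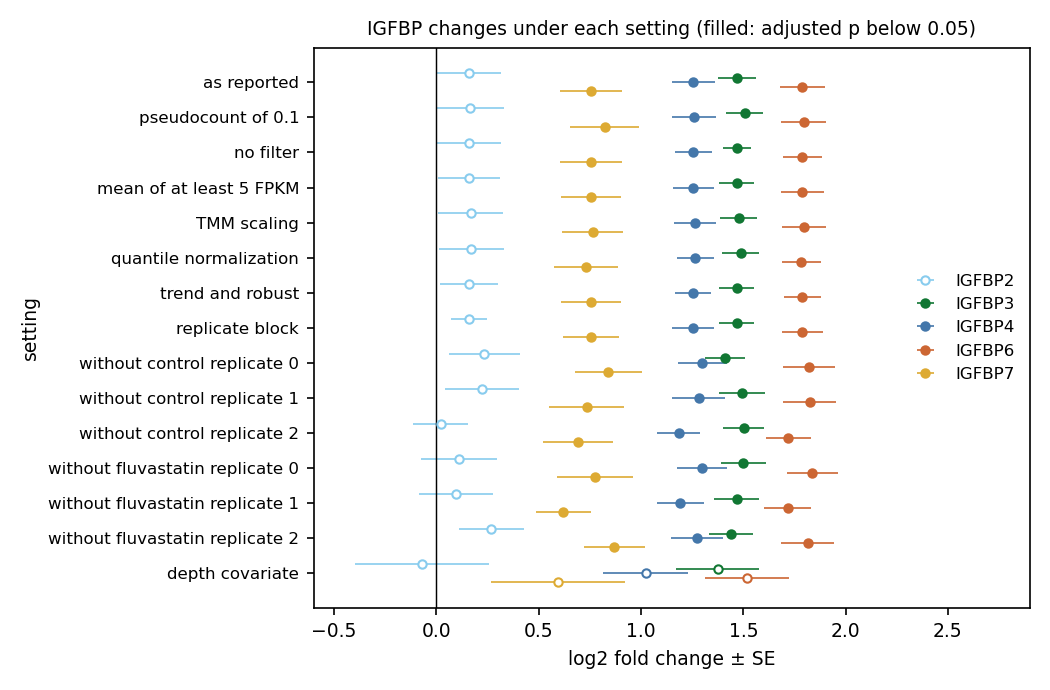
Log2 fold change ± SE of the 5 tested IGFBP genes as reported and under 14 other settings, with filled points for an adjusted p below 0.05. The points of IGFBP3, IGFBP4, IGFBP6 and IGFBP7 are filled in every setting except the depth covariate, and those of IGFBP2 are open throughout.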

How the data were processed

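RNA-seq of 6 A375 libraries was analysed in 2 groups of 3, taken from the sample titles. STAR, Cufflinks, Cuffdiff and hg38 are named per the submitters' processing notes; their versions and the annotation release are not given in the sources used here. The deposited table names no unit; its values were taken as FPKM, as the authors' Cufflinks gives. Of 29790 identifiers, 29542 matched GENCODE release 29 (GRCh38), version ignored. No pair of libraries shared more than 2 nonzero values exactly.

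The test used genes reaching 1 FPKM in 3 or more libraries, as log2(FPKM + 1), in limma 3.58.1 (R 4.3.3; lmFit, eBayes, two-sided, Benjamini-Hochberg over 14344 genes, threshold 0.05). The fit was run on simulated data without a depth difference between groups, so that trial does not bear on depth. FPKM carry no counts. Relative depth was read from the commonest ratio between libraries among genes listed at 0 somewhere, and fragment numbers, which use single-transcript genes, are approximate. Promoter windows came from RefSeq (GRCh38.p14). The genes, lists and motifs were chosen with earlier results of these data known. Named genes were all 6 members, the ligands and receptors, IGFBP1, up to 4 of each other list by adjusted p, and the 3 nearest patterns of each tested member. KAZALD1, IGFALS, PAPPA, STC2, POLR2B, the markers and the neighbouring genes were added beside this rule. The values of 1 gene among the adapters and kinases are not reported here, though the counts include it. Alternatives were no filter, a pseudocount of 0.1, only genes averaging 5 FPKM or more, TMM scaling, quantile normalization, trend and robust, a replicate block, each library left out and, chosen after seeing the data, a depth covariate.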

Additional observations from a re-analysis of the deposited data

How the results depend on the processing

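Under 13 of 14 settings the 4 IGFBP calls kept direction and threshold, with log2 fold changes of 1.41 to 1.51 (IGFBP3), 1.18 to 1.30 (IGFBP4), 1.72 to 1.84 (IGFBP6) and 0.62 to 0.87 (IGFBP7, highest adjusted p = 0.0453). The exception was the depth covariate, chosen after seeing the data, with 1.37, 1.02, 1.52 and 0.60 for these genes, -0.070 for IGFBP2 (adjusted p = 0.931), 0 IGFBP calls and 61 genes in all. It left 2 calls each among the IGFBP partners and proteases and the other IGFBP-type domain genes, 0 among surface partners, adapters and IGF2 mRNA-binding proteins, and 0.14 for IGF2BP3. With it, limma gave 3 IGFBPs, 2 surface partners, 4 adapters and 0 IGF2 mRNA-binding proteins at an unadjusted p below 0.05. The same held for 2736 of all 14344 genes.

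All genes called numbered 2340 to 3416 with a library left out (2340 without fluvastatin replicate 0, 2641 without fluvastatin replicate 2), receptors 0 to 2, adapters 2 to 5 and IGF2 mRNA-binding proteins 0 to 1. IGF1R then ranged from -0.072 to 0.21 and IGF2BP3 from -0.13 to 0.055. Quantile normalization called 1 receptor, INSR (adjusted p = 0.0376), a mean of at least 5 FPKM called 2 partners and proteases of the 5 then tested, and trend and robust called 7 adapters. IGF2BP1 was lost, leaving 0 of its list, with a pseudocount of 0.1 (adjusted p = 0.0502), no filter (0.0751) and quantile normalization (0.0538). The cause was not tested.

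Same-numbered libraries correlated by -0.002, 0.085 and 0.084 in their deviations from the group means. Differently numbered ones correlated by -0.136 to 0.058. Values this weak cannot decide whether the numbers pair the libraries. With a replicate block 4 IGFBPs and 3154 genes passed, and of the named genes CTSD (0.0525) and IRS1 (0.0794) lost their calls. IGFBP5, tested only with no filter, had adjusted p = 0.277. Depth limits IGFBP1 and IGFBP5 most.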

Other observations

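The coding genes that flank the IGFBP loci, looked up after the IGFBP values were seen, moved in both directions. Of 10 nearest coding neighbours outside the group, 7 were tested, 2 rose, 2 fell and 3 did not pass. Across all 14344 genes tested 27.7% were called. Neighbours were sought only among coding genes measured here, and for them too depth and treatment cannot be told apart. TNS4, a tensin gene of focal adhesions 18.1 kb beyond IGFBP4, was at 0.791, 1.56 and 0.628 FPKM in the controls and 5.86, 7.51 and 5.92 FPKM with fluvastatin, a 6.48-fold rise (limma adjusted p = 0.00127). On the other side of IGFBP4, 25.5 kb away, TOP2A, a topoisomerase of dividing cells, fell 1.49-fold, from 148.6 to 150.1 FPKM in the controls to 95.2 to 107.1 FPKM with fluvastatin (limma adjusted p = 0.00491). SPRYD3, 18015 bases from IGFBP6, rose 1.33-fold (limma adjusted p = 0.0219), while SOAT2, a cholesterol esterification enzyme gene 1.2 kb beyond IGFBP6, reached at most 0.258 FPKM in any library.

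Tensin genes lie on the chromosomes of 5 of the 6 IGFBP genes analysed. TNS3, the next coding gene beyond IGFBP3 at 1353.3 kb, fell 1.44-fold from 18.1 ± 0.747 to 12.6 ± 1.80 FPKM (limma adjusted p = 0.0219). TNS2, 33.1 kb from IGFBP6, was at 50.6 ± 2.37 and 42.5 ± 6.06 FPKM (limma adjusted p = 0.162), and TNS1, 1104.1 kb from IGFBP5, at 2.87 ± 0.956 and 3.67 ± 0.578 FPKM (limma adjusted p = 0.291).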
